A study of Danio rerio with 19 samples.

Results

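The let-7 microRNA family was examined on the arrays through all probes whose name begins with dre-let-7 (the prefix marks zebrafish). There were 36 such probes among the 546 probes for known zebrafish microRNAs and the 7604 probes in all. They covered 17 loci, with 18 probes for left arms and 18 for right arms, since the let-7b locus was probed with 2 probes per arm. Left and right name the side of the hairpin precursor from which a mature strand is cut.

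Each of the 19 two-colour arrays compared RNA of Ras transgenic fish (green channel) with RNA of AB wild-type controls (red channel). The first groups were larvae with kita-driven Gal4 and UAS-driven oncogenic HRAS, fused to eGFP (kita:Ras). They were taken at 3 days post fertilization (dpf, n = 4), at 7 dpf (n = 3) and at 14 dpf (n = 3). Other larvae at 3 dpf carried the same transgene under zic4-driven Gal4 (zic:Ras, n = 3). Further larvae at 3 dpf carried oncogenic HRAS, also fused to eGFP, under the hsp70l heat-shock promoter (HS-Ras, n = 3). The last group was adult kita:Ras fins bearing melanoma (adult melanoma, n = 3). Controls were stage-matched wild-type larvae without a transgene, and tumour-free fins for the adults. HS-Ras larvae and their controls were both held at 37 °C for 30 min and collected 6 h later. Samples were pools of 15 larvae at 3 and 7 dpf, pools of 5 larvae at 14 dpf and single adult fins. Larval pools came from different parents. The kita promoter is active in melanocytes, their precursors and the notochord, and the larvae were homogenised whole, so fewer cells of a type and less RNA per cell cannot be told apart. The dyes were never swapped, so a dye preference of a probe and the Ras effect cannot be told apart either.

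The let-7 family is among the most widely conserved animal microRNA families. The mature guide strand lies in the left (5′) arm and is loaded into Argonaute, while the right (3′) arm, the passenger strand, is usually degraded. In Caenorhabditis elegans let-7 accumulates late and drives the passage from larval to adult cell fates, and in vertebrates it likewise accumulates as tissues differentiate, held back earlier by the RNA-binding protein Lin28. RAS mRNAs are known let-7 targets in worms and in human cells, and the strand is recognised through its seed, bases 2 to 8.

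The sequences below were read as the RNA complementary to the first 22 bases of each deposited probe, from 5′ to 3′, with the seed in capitals. The left arms are shown because they are nearly identical. All 10 distinct left-arm sequences had the seed GAGGUAG, and pairs of them differed at 1 to 6 of 22 bases.
let-7a left arm: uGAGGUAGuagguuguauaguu
let-7c left arm: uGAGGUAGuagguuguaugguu
let-7e left arm: uGAGGUAGuagauugaauaguu
let-7h left arm: uGAGGUAGuaaguuguguuguu
let-7i left arm: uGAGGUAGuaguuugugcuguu
let-7j left arm: uGAGGUAGuuguuuguacaguu
let-7a came from 5 loci with 1 sequence. Because the nearest left-arm sequences differed by 1 base in most cases, signal of a probe's own strand and of its relatives cannot be told apart. The right arms had 14 distinct sequences with 6 different seeds, and the ones on which the results turn are shown next.
let-7c-1, c-2, d-1 and d-2 right arm: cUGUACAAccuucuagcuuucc
let-7a-2 right arm: cUGUACAAccuccuagcuuucc
let-7a-3 right arm: cUAUACAAcuuacugucuuucc
let-7a-6 right arm: cUAUACAGucuauugccuuccc
let-7b right arm: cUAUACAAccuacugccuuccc
let-7f right arm: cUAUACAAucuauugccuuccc
4 loci shared the first of these, and the let-7a-2 sequence differed from it at 1 base, as the let-7f sequence did from that of let-7a-6. No left-arm sequence shared a seed with a right-arm sequence. None of the 510 other known probes and none of the 7058 probes for predicted microRNAs held the complement of the left-arm seed at the same place.

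The 2 arms were detected very differently. All 18 left-arm probes were well above background, by the scanner software's own test, in both channels of all 19 arrays. No right-arm probe was. The right arm of let-7b came closest, with its second probe above background on 16 arrays in the Ras channel and on 18 in the control channel, and the right arm of let-7j was above background on 0 of 19 arrays in either channel. The number of right-arm probes above background ranged from 6 to 12 per array in the Ras channel of kita:Ras 14 dpf larvae and from 10 to 14 in their control channel, and from 0 to 3 in adult melanoma and from 4 to 8 in adult control fins. At 3 dpf the 4 kita:Ras arrays lay on 2 slides, and between 0 and 11 right-arm probes were above background in the Ras channel and between 0 and 14 in the control channel. The slide that held replicates 3 and 4 and the adult arrays had fewer known probes above background (48.99 to 60.07% in the Ras channel) than the slide that held the other kita larvae (76.83 to 89.47%).

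**Figure D1:**
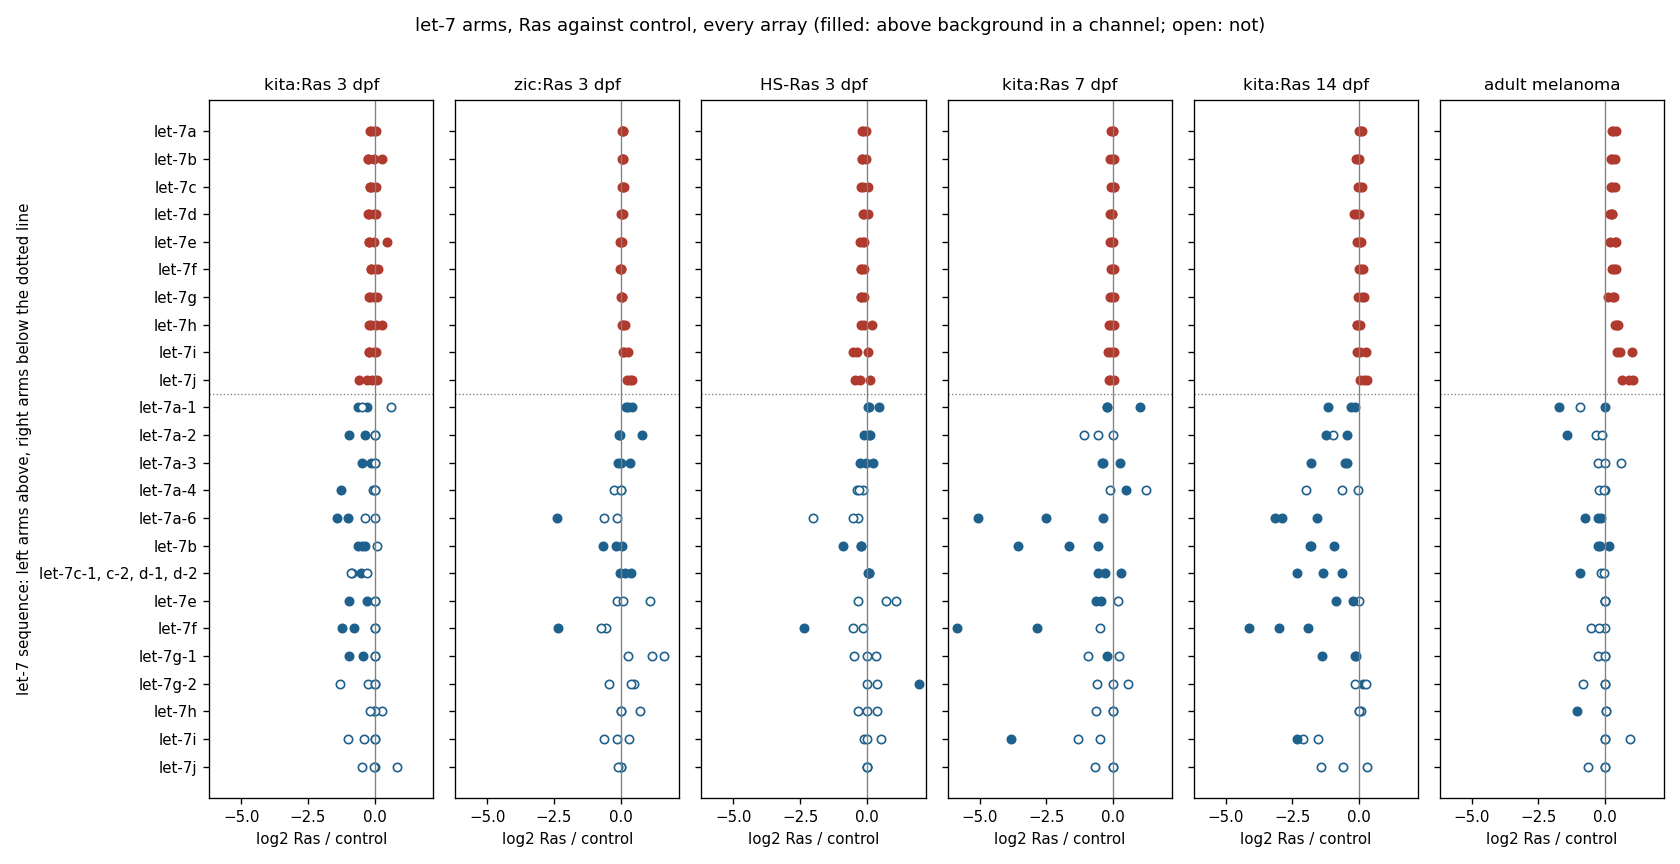
Log2 ratio of Ras over control signal for each distinct let-7 sequence (rows; left arms in red, right arms in blue) on each array, in 6 panels by group. Points are arrays, with probes of 1 sequence averaged, filled where either channel was well above background and open otherwise. Left arms sit close to 0 in larvae and above 0 in all 3 adult arrays, and right arms reach lower values at 7 and 14 dpf.

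No left arm was called changed in Ras fish. A probe was tested where it was well above background in a channel on most arrays of a comparison, and called where limma's adjusted p was below 0.01 over all known probes tested and the linear fold was above 1.2. No left-arm probe was called in any of the 6 comparisons, out of 18 tested in each. The share of all known probes called at 3 dpf was 2.34% with kita, 1.1% with zic and 8.85% with the heat-shock transgene. In older kita:Ras fish it was 2.62% (7 dpf), 25.2% (14 dpf) and 0% (adult melanoma). At an unadjusted p below 0.05, limma counted 3, 1, 7, 0, 0 and 16 of the 18 left-arm probes in the same order, beside 32.6, 24.2, 25.7, 18.3, 50.8 and 53.5% of all known probes tested. The median log2 ratio over the 18 probes was -0.07, 0.07 and -0.13 in the kita, zic and heat-shock larvae at 3 dpf, beside -0.05, 0.01 and 0.01 over all known probes tested. At 7 dpf it was -0.03 beside -0.01, and at 14 dpf 0.05 beside -0.16.

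Among larvae, the left arm with the furthest mean in kita:Ras at 3 dpf was let-7j, with log2 ratios of -0.12, -0.28, 0.10 and -0.59. The arrays lay on both sides of 0, and the mean of -0.22 ± 0.10 (SE, adjusted p = 0.158, limma) did not pass. The let-7a strand, read by 5 probes, had log2 ratios of -0.16 and -0.14 on the 2 arrays of the first slide and -0.04 and 0.04 on those of the second. Neither slide alone gave a called let-7 probe. In zic:Ras larvae let-7j was again furthest, with log2 ratios of 0.43, 0.35 and 0.22. All 3 arrays were above 0, and the mean of 0.34 ± 0.12 (SE) had an adjusted p of 0.105 in limma. In HS-Ras larvae let-7i was furthest, at 0.03, -0.53 and -0.35. Replicate 1 stood apart from replicates 2 and 3, and the mean was -0.29 ± 0.10 (SE, limma adjusted p = 0.0654). At 7 dpf let-7d-2 averaged -0.09 ± 0.06 (SE, limma adjusted p = 0.502), and the let-7d strand over both loci gave -0.03, -0.11 and -0.05. At 14 dpf let-7j gave 0.19, 0.30 and 0.03, all above 0, and averaged 0.17 ± 0.12 (SE, limma adjusted p = 0.285).

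At 14 dpf some right arms were called lower in Ras larvae, most of them near background. Of 13 right-arm probes tested there, 8 were called lower and none higher. Of these 8, 5 (let-7c-1, c-2, d-1, d-2 and f) were well above background on 1 of 3 arrays in the Ras channel, and passed the filter through the control channel. Where a probe had to be well above background in both channels on all 3 arrays, 5 right-arm probes remained in the test and 2 were called, let-7a-3 and 1 of the let-7b probes. The count of 8 is therefore a description and not a measure of how many right arms differ. Across all known probes tested at 14 dpf, 22.6% were called lower, and among the 228 other right-arm probes 25.4%. The 8 probes stand for 5 sequences: the strand shared by let-7c-1, c-2, d-1 and d-2, and those of let-7a-2, let-7a-3, let-7b and let-7f.

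The right arm of let-7f had log2 ratios of -4.12, -2.99 and -1.92 at 14 dpf. Its processed signals were 37.95, 106.3 and 115.3 in the Ras channel, against 660, 846.7 and 437.4 in the control channel, so the groups did not overlap. The mean was -3.01 ± 0.77 (SE, limma adjusted p = 0.00746), and it was above background on 1 of 3 arrays in the Ras channel and on 3 of 3 in the control channel, so the size of the difference was not measured on the other 2 arrays. With normexp and loess in place of the deposited log ratio it was -0.65 (adjusted p = 0.0207). The strand shared by the let-7c and let-7d loci gave -1.36, -2.33 and -0.64, with mean signals over its 4 probes of 58.08, 87.12 and 191.7 in the Ras channel and 149.1, 437.3 and 299.7 in the control channel. Here the channels overlapped between arrays, although the Ras signal was the lower one on each array. Its let-7c-1 probe averaged -1.81 ± 0.25 (SE, limma adjusted p = 0.00066), and with normexp and loess -0.25 (limma adjusted p = 0.00863), which is under the fold required. The other 3 probes of this strand averaged between -1.43 and -1.25, and with normexp and loess between -0.29 and -0.24.

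The right arm of let-7b had log2 ratios of -1.84, -1.81 and -0.93. Its signals were 244.3, 408.5 and 460.7 in the Ras channel against 877.4, 1432 and 878.1 in the control channel, with no overlap. One of its 2 probes was called (-1.52 ± 0.37, SE, limma adjusted p = 0.00583) and the other was not (-1.54 ± 0.44, adjusted p = 0.0133), although both read 1 sequence. The right arm of let-7a-3 gave -0.53, -1.80 and -0.46 (mean -0.93 ± 0.22, SE, limma adjusted p = 0.00517), and that of let-7a-2 gave -0.99, -1.25 and -0.45 (mean -0.90 ± 0.23, SE, adjusted p = 0.00842). Replicate 2 was the lowest array for both. The let-7a-2 right arm was well above background on 2 of 3 arrays in the Ras channel and on 1 of 3 in the control channel. With spots not well above background in either channel set as missing, it averaged -0.65 (limma adjusted p = 0.132). Of the 5 right-arm probes tested and not called, the right arm of let-7a-6 had the lowest mean (-2.54 ± 0.69, SE, adjusted p = 0.0109), and let-7a-1, let-7e and let-7g-1 lay between -0.55 and -0.35. The right arms of let-7a-4, let-7g-2, let-7h, let-7i and let-7j were too dim to be tested. Among these let-7i had log2 ratios of -2.11, -2.33 and -1.54, above background on 0 arrays in the Ras channel and on 1 in the control channel.

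**Figure D2:**
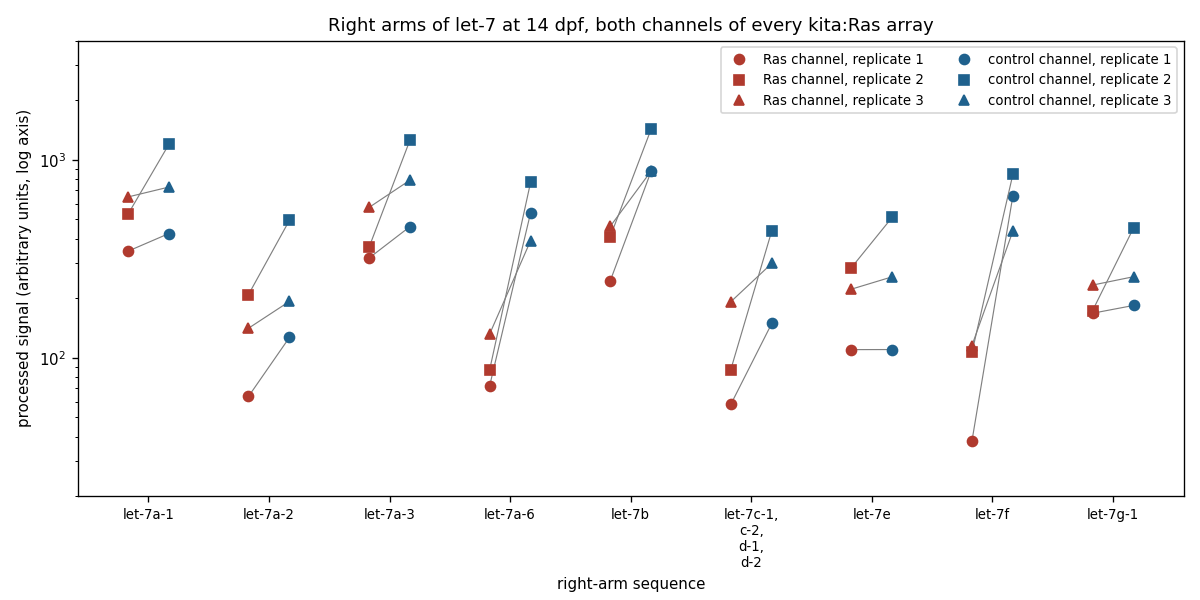
Processed signal (log axis, arbitrary units) of 9 right-arm sequences on the 3 kita:Ras arrays at 14 dpf, with the Ras channel left (red) and the control channel right (blue). Lines join the 2 channels of an array, and marker shapes are replicates. The Ras signal of let-7f sits between 37.95 and 115.3 and its control signal between 437.4 and 846.7, while the let-7e signals of replicate 1 are 109.9 and 110.

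The count depended on single arrays. Without replicate 1, 2 or 3, the count of called right arms at 14 dpf was 3, 1 and 4, and with the 3 arrays fitted alone it was 0. When the 500 known probes tested were put in 4 equal classes by control signal, 8 right-arm probes lay in the dimmest class and 5 in the next. In these classes 27.4% and 30.8% of the other known probes were called lower, and in the 2 brighter classes 22% and 9.76%. The median log2 ratio of the other known probes was -0.45, -0.33, -0.10 and -0.05 in the same order. All 18 left-arm probes lay in the 2 brighter classes. Markers of other cells moved at this age as well: 3 of 6 pigment-cell (miR-204) probes were called higher, 11 of 22 neural (miR-9, miR-124) probes lower, and 7 of 16 muscle (miR-1, miR-133, miR-206) probes lower with 1 higher. Of the other lists, 3 of 6 epidermis probes were called lower (median -0.40), 1 of 4 erythroid probes higher, 1 of 7 white blood cell probes lower and 0 of 2 liver probes. The part of brightness and of these cells in the result was not tested.

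At 7 dpf the right arms of let-7b, let-7f and let-7a-6 were below 0 on all 3 arrays, far more on replicates 1 and 2 than on replicate 3. Of 9 right-arm probes tested, 1 was called, the first let-7b probe (-1.90 ± 0.37, SE, limma adjusted p = 0.00752). It was the only 1 of the 496 known probes tested that was called lower (0.202%). The right arms of let-7a-1, a-3, c-2, d-2 and e were not called. Each of them had arrays on both sides of 0, and their means ran from -0.34 to 0.20. The let-7b strand had log2 ratios of -1.65, -3.55 and -0.57, with signals of 150.6, 74.48 and 304.6 in the Ras channel and 472.4, 871.8 and 451.1 in the control channel. The channels did not overlap, and replicate 2 was the lowest array. The right arm of let-7f gave -2.85, -5.84 and -0.50 and was above background on 0 arrays in the Ras channel and on 2 in the control channel. On means over the 3 arrays after normexp, loess and Aquantile normalization, it was 1.74-fold lower in Ras larvae (log2 signals of 5.986 and 6.788). The right arm of let-7a-6 was 1.68-fold lower (6.018 and 6.763). The lowest signal well above background on an array would have replaced a dimmer signal, but it changed neither mean. These are ratios of means and not of each array, and the Ras-channel signals were not well above background. Neither of these 2 right arms was called (limma adjusted p = 0.0319 and 0.0407). The let-7b call was lost without replicate 1 and without replicate 2, and without replicate 3 there were 4 calls. At this age 3 of 4 erythroid probes (median 1.28) and 3 of 6 pigment-cell probes (median 0.57) were called higher and no probe of the other lists was called, and their part was not tested.

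At 3 dpf no right arm was called. Only 1 right-arm probe could be tested in kita:Ras (the second let-7b probe, -0.36 ± 0.38, SE, limma adjusted p = 0.52) and 9 in each of zic:Ras and HS-Ras, where their medians were 0.09 and -0.01. At an unadjusted p below 0.05 none of them passed either. The lowest HS-Ras mean was that of the first let-7b probe (-0.51 ± 0.37, SE), with all 3 arrays below 0. In zic:Ras the let-7d-2 right arm was furthest from 0 (0.41 ± 0.31, SE), with all 3 arrays above 0. In HS-Ras the right arms of let-7d-2 (0.24) and let-7a-1 (0.20) were also above 0 on all 3 arrays. Of the 9 means, 7 lay above 0 and 2 below in zic:Ras, and 4 above and 5 below in HS-Ras.

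The 2 arms of a locus were then set against each other within each array, as the left-arm log2 ratio minus the right-arm log2 ratio. At 14 dpf the difference was called for 10 of 13 let-7 loci tested, counting the 2 let-7b probe pairs separately, and the left arm was the higher one in all 10. Among all loci with both arms tested, 18.8% were called with the left arm higher and 36.8% in either direction. The difference was 3.09 ± 0.70 for let-7f (SE, limma adjusted p = 0.00219), 2.58 ± 0.63 for let-7a-6 (adjusted p = 0.00371) and 1.84 ± 0.28 for let-7c-1 (adjusted p = 0.000386). The right arms of these 3 loci, and of let-7c-2, d-1 and d-2, were well above background on 1 of 3 arrays in the Ras channel. With probes well above background in both channels on all arrays, 5 probe pairs remained in the test and 3 were called, let-7a-3 and the 2 pairs of let-7b. The right arms of let-7c-1, c-2, d-1 and d-2 share 1 sequence. The count of 10 is therefore a description and not a measure of how many loci differ. The 3 loci not called were let-7a-1, let-7e and let-7g-1. All 13 differences were positive on all 3 arrays. The left-arm median was 0.05 at this age and all 13 right-arm probes were below 0 on all 3 arrays. The differences therefore largely repeat the right-arm ratios. The share of other loci positive on all arrays is not given here. Without replicate 1, 2 or 3 the count was 3, 1 and 7, and with normexp and loess in place of the deposited log ratio it was 4.

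**Figure D3:**
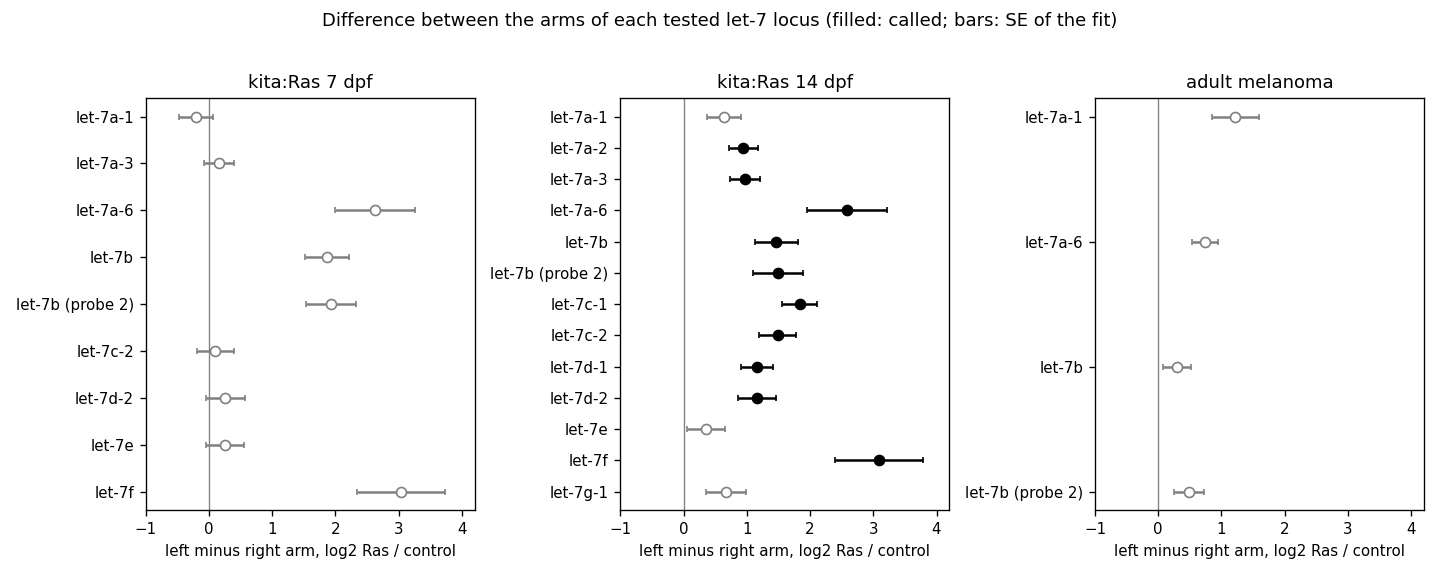
Left minus right arm of the log2 ratio Ras over control for each tested let-7 locus (rows), in 3 panels for 7 dpf, 14 dpf and adult melanoma. Points are fitted means, bars are SE, and filled points were called. At 14 dpf all 13 loci lie above 0, from 0.35 to 3.09.

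No let-7 locus was called in the other 5 comparisons, where 7.44% of all loci were called in either direction with kita at 3 dpf, 1.1% with the heat-shock transgene and 0% with zic, at 7 dpf and in melanoma. At an unadjusted p below 0.05, limma counted 4 of 9 let-7 loci at 7 dpf and 2 of 4 in adult melanoma, and 0 in each of the 3 dpf comparisons. The share of all loci at this cut was not counted, so these counts are a description. No let-7 ratio was called as different between the 3 larval ages of kita:Ras in the F test of limma (19 members tested, smallest adjusted p = 0.14), with 1.84% of all known probes called. None was called between the 3 models at 3 dpf (smallest adjusted p = 0.0704), with 0.532% called. At an unadjusted p below 0.05 these tests counted 1 and 5 of the 19. For all known probes this was not counted. Since a right arm had to be above background in each group to enter, only 1 right-arm probe was among the 19.

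In adult melanoma every left arm had a ratio above 0 on every array. The median over the 18 probes was 0.32 and the range 0.20 to 0.87, beside a median of -0.18 over all known probes tested. None passed the adjusted threshold. Replicate 3 had 514 spots flagged as outliers, 3 of them for let-7, against 0 and 1 on replicates 1 and 2. The left arm of let-7j was furthest, with log2 ratios of 0.64, 0.90 and 1.05 (mean 0.87 ± 0.11, SE, limma adjusted p = 0.0277), followed by let-7i with 0.46, 1.00 and 0.55 (0.67 ± 0.15, adjusted p = 0.055). The let-7a strand gave 0.41, 0.31 and 0.26, a narrower range. In a fit with all 19 arrays sharing 1 estimate of the spread, 13 of the 18 left arms were called higher. In that fit 244 of 346 known probes were called, counting both directions. Of 4 right-arm probes tested, none was called, and let-7a-1 was lowest at -0.02, -1.74 and -0.94 (mean -0.90 ± 0.42, SE, adjusted p = 0.179). It was above background on 0 arrays in melanoma and on 2 in control fins. After normexp, loess and Aquantile normalization its mean over the arrays was 1.1-fold lower in melanoma (log2 signals of 6.486 and 6.619). The floor described for 7 dpf did not change this ratio, which is one of means and not of each array.

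Probes that mark cell types were displaced in the same arrays, and none was called. All 6 pigment-cell probes (the miR-204 list) had a mean above 0, with a median of 2.69, while medians of the muscle, neural and epidermis lists were -1.09, -1.17 and -1.52, with 13 of 16, 16 of 22 and 5 of 6 probes tested. The erythroid median was -0.34 (4 of 4 tested). White blood cell probes had a median of -1.27 (6 of 8 tested, from -2.56 to 1.05), and the 1 liver probe tested was at 1.65. Their part in the let-7 ratios was not tested.

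The level of the left arms, by contrast, differed widely with age and tissue. Levels are log2 processed signals of 1 channel minus the 75th percentile of that array's known probes detected throughout, so 0 is a bright probe, and the slide was held as a block in the fit over the 13 kita and adult arrays. Each probe is set only against itself. In control RNA all 18 left-arm probes were called higher in adult fin than in 3 dpf larvae, where 23% of all known probes were called higher and 60.2% lower. The median difference was 2.89 for let-7 left arms and -1.63 for all known probes tested. In the Ras channel, where the adult fins bore melanoma, all 18 were likewise higher, with a median of 3.13 beside -1.37. There 21.9% of all known probes were called higher. Whole larvae and fins are different tissues, so age and tissue cannot be told apart. In the Ras channel the tumour cannot be told apart from them either. In control RNA of adult fin, all 22 neural probes were called lower (median -6.71). Of 6 white blood cell probes tested, 5 were called higher and 1 lower (median 2.38). Lower calls were also made for 2 of 2 liver probes (median -6.33) and 4 of 6 pigment-cell probes (median -1.09). Muscle had 5 of 13 higher and 3 lower, epidermis 1 of 5 higher and 1 lower, and erythroid 1 of 4 higher and 2 lower. The part of these cells was not tested.

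**Figure D4:**
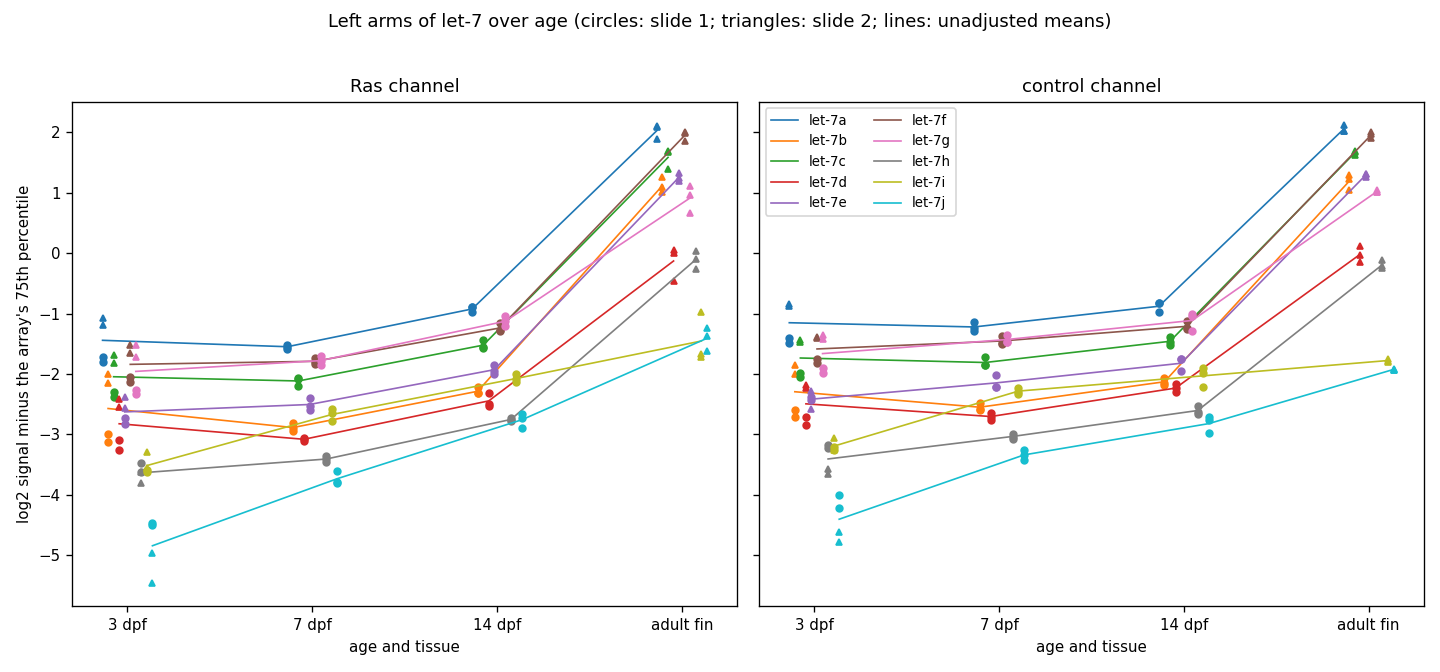
Level of the 10 left-arm sequences (log2 signal minus the array's 75th percentile) by stage (larval ages, then adult fin), in the Ras channel (left panel) and the control channel (right panel). Points are arrays, circles on slide 1 and triangles on slide 2, and lines join the unadjusted group means. Each left arm is highest in adult fin, and let-7e climbs more than let-7i. In the Ras channel the adult fins bore melanoma.

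The size of the adult difference varied among family members. It was largest for let-7e, whose control-channel levels were 1.26, 1.31 and 1.31 in adult fins, against -2.38, -2.44, -2.28 and -2.58 in 3 dpf larvae. The groups were far apart, with a fitted difference of 3.72 ± 0.12 (SE, limma adjusted p = 3.76e-10). let-7h differed by 3.42 ± 0.09, let-7c-2 by 3.38 ± 0.09 and let-7f by 3.35 ± 0.09 (SE). let-7i differed least, with levels of -1.80, -1.75 and -1.78 in adult fins, against -3.26, -3.20, -3.26 and -3.06 in 3 dpf larvae. That was 1.38 ± 0.11 (SE, limma adjusted p = 4.78e-07), still without overlap. The 2 let-7d loci lay at 2.14 and 2.25 and the 2 let-7g loci at 2.40 and 2.41. Differences between members were not tested. All 18 left arms were called higher in adult fin under each of the 10 scaling, slide, filter and fit alternatives and with any 1 array left out. This held in both channels, with fins bearing melanoma in the Ras channel. The median over all known probes depended on the scaling, at 0.19 after quantile normalization and -0.49 with median scaling in control RNA, where the let-7 medians were 3.45 and 4.03.

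Within larvae the left arms were higher at 14 dpf than at 3 dpf, by less than in adult fin. In control RNA at 14 dpf against 3 dpf, all 18 were called higher (25.1% of all known probes were), with a median of 0.58 beside 0.07 over all known probes. The differences ran from 0.47 for let-7c-2 to 1.29 for let-7j. let-7j had control-channel levels of -4.22, -4.00, -4.78 and -4.62 at 3 dpf, -3.26, -3.42 and -3.35 at 7 dpf and -2.72, -2.98 and -2.77 at 14 dpf. These ages did not overlap. let-7i followed the same course, at -3.26, -3.20, -3.26 and -3.06, then -2.23, -2.33 and -2.29, then -1.98, -2.21 and -1.90. The 3 ages did not overlap here either. let-7a moved less, at -1.40, -1.48, -0.88 and -0.85 at 3 dpf, -1.14, -1.24 and -1.29 at 7 dpf and -0.83, -0.98 and -0.83 at 14 dpf. Its 3 dpf arrays on the second slide lay within the range at 14 dpf. Without the slide in the fit 5 of the 18 were called, with median scaling 4, and without replicate 2 at 3 dpf 9. Within the first slide alone all 18 were called. The shares of all known probes called in these settings are not given here, so these counts are a description. In the same comparison 5 of 7 white blood cell probes (median 1.23) and 2 of 2 liver probes (median 1.96) were called higher, and 5 of 22 neural, 2 of 4 erythroid and 2 of 16 muscle probes lower, and their part was not tested.

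At 7 dpf against 3 dpf, 5 of 18 left arms were called higher in control RNA, beside 17.4% of all known probes. These were let-7i (0.95 ± 0.11, SE, limma adjusted p = 4.77e-05), let-7j (0.77 ± 0.11, adjusted p = 0.000248), both let-7g loci (0.54 ± 0.10 and 0.48 ± 0.11) and let-7f (0.33 ± 0.09). Leaving out 1 of the 7 arrays gave 2 to 4 left arms, and let-7i and let-7j were called in all 17 alternatives. The unadjusted mean control levels of let-7a, let-7b and let-7d were -1.22, -2.55 and -2.70 at 7 dpf, against -1.15, -2.29 and -2.49 at 3 dpf. The left-arm median of 0.22 turned to -0.04 without the slide in the fit and to -0.07 with median scaling, beside -0.19 over all known probes in the fit described and -0.27 and -0.47 in these. At 14 against 7 dpf, 9 of 18 were called higher (24.5% of all known probes), with a median of 0.35 beside 0.27 over all known probes. The largest was let-7j (0.52 ± 0.10, SE). In the Ras channel 2 of 18 left arms were called higher at 7 against 3 dpf (11.8% of all known probes), 18 at 14 against 3 dpf (21.3%) and 16 at 14 against 7 dpf (13.9%), with medians of 0.21, 0.84 and 0.62. After normexp, loess and Aquantile normalization, the counts at 14 against 7 dpf were 0 left arms in control RNA and 1 in the Ras channel.

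**Figure D5:**
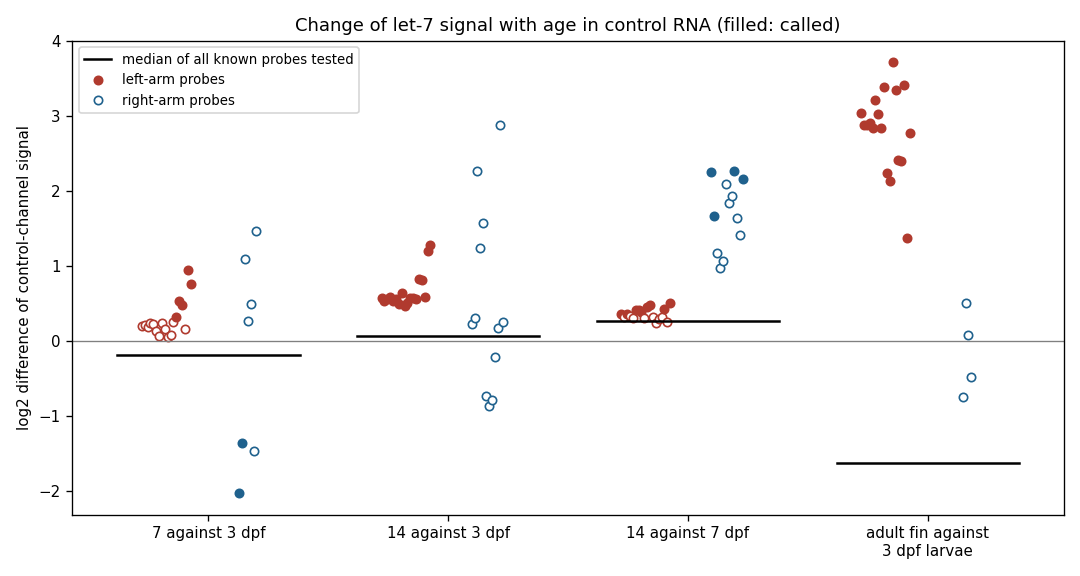
Fitted log2 difference of control-channel signal for each tested let-7 probe in 4 contrasts of age and tissue, left arms (red) and right arms (blue), filled where called. Black lines are medians over all known probes tested. In adult fin against 3 dpf larvae the left arms lie between 1.38 and 3.72, the 4 right arms between -0.74 and 0.51, and the black line at -1.63.

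Fewer right arms could be followed over age. In control RNA 2 of 7 tested right arms were called lower at 7 dpf than at 3 dpf (28.7% of all known probes were), let-7a-1 (-2.02 ± 0.40, SE, limma adjusted p = 0.0017) and let-7a-3 (-1.36 ± 0.33, adjusted p = 0.00532). Within the first slide, where more right arms were above background, 8 were called lower. The share of all known probes called in that setting is not given here, so the 8 are a description. At 14 against 7 dpf, 4 of 12 were called higher, beside 24.5% of all known probes. These were let-7a-1 (2.25 ± 0.36, SE), let-7d-2 (2.27 ± 0.38), let-7g-1 (2.16 ± 0.34) and let-7a-3 (1.67 ± 0.29). All 4 were well above background on 3 of 3 control arrays at 14 dpf, and at 7 dpf let-7d-2 and let-7g-1 were on 1 of 3 and let-7a-1 and let-7a-3 on 2 of 3. The right arm of let-7a-1 had control signals of 249.1, 40.75 and 477 at 7 dpf and 424, 1197 and 728.1 at 14 dpf, after 800.9 and 906.4 on the first slide at 3 dpf. The highest 7 dpf signal was above the lowest at 14 dpf, and on the second slide at 3 dpf this arm was not well above background. At 14 against 3 dpf none of 12 right arms was called. With limma 2 had an unadjusted p below 0.05, beside 60.8% of all known probes tested. In the Ras channel 2 of 5 right arms were called lower at 7 against 3 dpf (26.5% of all known probes), and 6 of 8 right-arm probes were called higher at 14 against 7 dpf (13.9%), 2 of them reading the 1 strand of let-7b. A probe entered when well above background on most arrays of either age, so right arms dim at 7 dpf could enter through 14 dpf alone. Of the 6, let-7a-2 was well above background on no array at 7 dpf. After normexp, loess and Aquantile normalization its mean log2 signal was 6.094 at 14 dpf and 6.192 at 7 dpf. The count of 6 is therefore a description.

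In adult fin none of 4 tested right arms was called against 3 dpf larvae, while their left arms rose. The left minus right difference of the change, a test added after the values had been seen, was called in 3 of 4 probe pairs, which were let-7a-1 and the 2 pairs of let-7b, and 35.8% of all loci were called with the left arm higher. At 14 against 7 dpf, 4 of 12 probe pairs (let-7a-1, let-7a-3, let-7d-2 and let-7g-1) were called with the right arm higher, and 15.1% of all loci were called that way. At 7 dpf the right arms of let-7d-2 and let-7g-1 were well above background on 1 of 3 control arrays, so these pairs entered through 14 dpf. With a strict filter the count was 0. The count of 4 is therefore a description. No pair was called at 14 against 3 dpf, where 11.9% of all loci were called with the left arm higher. There 1 of 12 pairs had an unadjusted p below 0.05 in limma, and the share of all loci at this cut was not counted. At 7 against 3 dpf, 2 of 7 pairs, let-7a-1 and let-7a-3, were called with the left arm higher (25.9% of all loci). Several of these right arms were near background, where the signal has a floor.

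No let-7 probe was called between heat-shocked and unshocked controls. In controls of the heat-shock experiment against unshocked controls of the zic experiment, both at 3 dpf and on the same slide, none of 18 left arms and none of 9 right arms was called, nor was any of the 454 known probes tested (0%). All 18 left arms lay above 0, with a median of 0.32 beside 0.03 over all known probes. At an unadjusted p below 0.05, limma counted 15 of the 18 left arms and 85 of all 454 known probes. The smallest adjusted p was 0.0471.

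Members of the miR-99, miR-100 and miR-125 families, which share primary transcripts with several let-7 loci in vertebrates, were read by 20 probes. None of their 10 left arms was called in any Ras comparison, with medians between -0.16 and 0.03. At 14 dpf 3 of 9 right arms tested were called lower (those of miR-125a-1, miR-125a-2 and miR-125b-1, from -1.27 to -0.59) and 1 higher, miR-125b-3 (0.46 ± 0.12, SE). Of all known probes tested there, 22.6% were called lower. In kita:Ras at 3 dpf 1 of 9 right arms was called lower, miR-100-2 (-1.02), beside 2.34% of all known probes called in either direction. In adult fin against 3 dpf larvae, 0 of 10 of their left arms were called higher and 4 lower in control RNA. Their median was -0.27, against 2.89 for the let-7 left arms. Of 9 right arms tested, 8 were called lower and 0 higher, where 60.2% of all known probes were called lower.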

How the data were processed

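RNA was hybridised to Agilent two-colour microRNA arrays. The authors labelled Ras RNA with Hy3 (green) and control RNA with Hy5 (red) and deposited Feature Extraction files (versions 9.5 and 9.5.3.1 in the submitters' notes, 10 in the file headers) with log10 ratios and processed intensities, already background-subtracted and dye-normalized. Ratios were turned to log2 Ras over control. The 2 spots of a probe were averaged, leaving out spots that Feature Extraction flagged as outliers. Many dim spots carry a deposited ratio of 0 and stayed in. Feature Extraction flagged no saturated spot.

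limma 3.58.1 (R 4.3.3) was fitted to all 546 known probes, with Benjamini-Hochberg adjustment over those tested. The 16 larval arrays shared 1 fit and the 3 adult arrays another. Levels used 273 (control) and 212 (Ras) known probes for scaling. Scripts were tested on simulated data. The number of arrays limits the precision.

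The members, lists and tests were chosen with earlier results of these data known. All 36 members were accounted for. For ratios, the strands called were given by array, and so was the left arm furthest from 0 where none was called. For levels, only some of the members called were given by array. More than 1 choice of which probes enter the fit was run before the text was written, and the one in the written design was kept.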

Additional observations from a re-analysis of the deposited data

Results flagged for a closer look

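Of 57 let-7 series examined in the 4 kita:Ras arrays at 3 dpf, 1 had an array far from the others by Dixon's ratio, where chance would give about 1 in 20. The second right-arm probe of let-7b had a control-channel level of -5.73 in replicate 3, while the other 3 arrays lay between -6.90 and -6.73.

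Of 79 pairings of groups, taken probe by probe where no F test covered the difference, 7 stood out, each of adult melanoma with a larval kita:Ras group. In these all arrays of the 2 groups lay on opposite sides of 0, and the difference was not tested. This was not counted over the other known probes, so the 7 are a description. Every left arm was above 0 on all adult arrays, so only the larval side decided which were listed. All were left arms. Against 3 dpf larvae, let-7d-2 averaged a log2 ratio of 0.21 in adult melanoma and -0.15 in larvae, let-7a-6 averaged 0.34 and -0.10, let-7a-4 averaged 0.32 and -0.07, and let-7c-1 averaged 0.22 and -0.12. Against 7 dpf larvae, let-7d-2 averaged 0.21 in adult melanoma and -0.09 in larvae. Against 14 dpf larvae, let-7b averaged 0.28 in adult melanoma and -0.05 in larvae, and let-7d-1 averaged 0.26 and -0.12.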

How the results depend on the processing

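Of 354 alternative values of 27 counts, 253 stayed within 1.5 times the count given and 101 did not. The 253 include comparisons with no let-7 call to lose, such as those at 3 dpf, so they overstate how stable the calls were. Of 2221 values for single probes or loci, 1681 kept their call, 533 lost it and 7 changed sign. A called probe or locus that was not tested separately under an alternative has no value there. At 14 dpf the right arm of let-7c-2 thus has 10 values and the called let-7b right-arm probe 14. Losses of this kind are not among the 533. No let-7 probe was called under any alternative in kita:Ras, zic:Ras or HS-Ras at 3 dpf or in the F tests. The same held between heat-shocked and unshocked controls. For most counts under an alternative, here and above, the share of all known probes called in that setting is not given. A setting that lost let-7 calls may have lost calls among other probes as well, so these counts are a description. Causes were not tested.

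For called ratios at 14 dpf (8 probes), the count was 2 with normexp and loess, 1 with dim spots missing, 2 with a strict filter, 5 with identical sequences averaged, 0 with the comparison fitted alone and 3 with the slide as a random block, and 1 to 4 without any 1 replicate. For arm differences at 14 dpf (10 loci) it was 4 with normexp and loess, 4 with dim spots missing and 3 with a strict filter, and 1 to 7 without any 1 replicate. At 7 dpf (1 probe) it was 0 with dim spots missing, a strict filter, identical sequences averaged, the comparison fitted alone or the slide random, 4 with unadjusted p, and 0 to 4 without any 1 replicate, and the arm difference (0 loci) gave 2 with normexp and loess and 0 to 4 without any 1 replicate. In adult melanoma (0 probes) it was 1 with median centring, 4 with unadjusted p and 13 with all arrays in 1 fit. Over all known probes adult calls were 0 in the fit used, 26 when fitted on tested probes only (an alternative added after the data were seen), 14 with normexp and loess, 23 with dim spots missing, 100 with median centring and 244 with all arrays in 1 fit.

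Replicate numbers did not pair the arrays: deviations had a median r of -0.03 between arrays of the same number (30 pairs) and -0.01 between different numbers (72 pairs). With the replicate block, called ratios were 4 at 14 dpf and 0 at 7 dpf, arm differences at 14 dpf were 5, and level calls at 14 against 7 dpf were 7 in the control channel and 9 in the Ras channel.

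For levels in the control channel, the count at 7 against 3 dpf (7 probes) was 11 with normexp, loess and Aquantile, 2 with no slide, 13 within 1 slide and 4 with median scaling, and 2 to 10 without any 1 replicate. At 14 against 3 dpf (18 probes) it was 5 with no slide, 4 with median scaling and 9 to 18 without any 1 replicate. At 14 against 7 dpf (13 probes) it was 5 with quantile normalization, 0 with Aquantile, 3 with no slide, 8 with the slide random, 5 with median scaling and 5 to 13 without any 1 replicate. In the Ras channel, the count at 7 against 3 dpf (4 probes) was 9 with quantile normalization, 16 with Aquantile, 14 within 1 slide, 2 with a strict filter and 0 to 8 without any 1 replicate. At 14 against 3 dpf (18 probes) it was 5 with no slide and 4 with median scaling, and at 14 against 7 dpf (22 probes) 5 with quantile normalization, 1 with Aquantile, 3 with no slide, 3 with median scaling and 3 to 9 without any 1 replicate. In adult fin it stayed between 18 and 26.

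The left minus right level contrasts, added after the data were seen, gave at 7 against 3 dpf (2 loci) 1 with no slide, 8 within 1 slide, 0 with quantile normalization, 1 with Aquantile, 0 with a strict filter and 0 to 7 without any 1 replicate. At 14 against 3 dpf (0 loci) Aquantile gave 5. At 14 against 7 dpf (4 loci) the count was 2 with no slide, 1 with quantile normalization, 0 with Aquantile, 0 with a strict filter and 0 to 4 without any 1 replicate. In adult fin (3 loci) it was 1 with quantile normalization, 0 with a strict filter and 2 to 12 without any 1 replicate.

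The let-7b probe pairs are counted separately among loci. The control-channel left-arm median at 7 against 3 dpf, 0.22, was -0.04 with no slide and -0.07 with median scaling. Called single probes changed sign at 14 against 7 dpf only. In the control channel the let-7b left arm was -0.10 with Aquantile, its second probe -0.020 with quantile normalization and -0.11 with Aquantile, and let-7d-1 -0.018 with quantile normalization. In the Ras channel with Aquantile the let-7b left arm was -0.094, its second probe -0.13 and the let-7a-2 right arm -0.10. Signal over background limits the right arms, of which none was above it on all arrays.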
